A study of Mus musculus with 6 samples.

Results

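The genes described here are 40 mouse genes of the antioxidant and glutathione system, together with the carbonyl reductases that detoxify its by-products. They were taken as a list of symbols, and every array probe whose platform annotation names one of them was used. Of the 40 genes, 37 had at least 1 probe and all 37 could be tested, while *Gsr*, *Prdx5* and *Prdx6* have no listed probe. The 37 genes are covered by 62 of the 25697 probes on the array, of which 57 were tested, and they are 37 of the 7695 genes tested in all.

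RNA was measured on 6 Illumina mouse BeadChip arrays, 3 for each of 2 genotypes, in cells of the calvaria that were sorted by GFP, a fluorescent protein carried with the *Osx1-Cre* transgene. One group came from ERα f/f;GFP:*Osx1-Cre* mice, in which the Cre deletes the estrogen receptor α (ERα) gene in *Osx1*-expressing cells, and the other from GFP:*Osx1-Cre* mice. The controls therefore carry the Cre and GFP as well, and a cell outside the *Osx1* lineage would keep its receptor. The calvaria came from pups a few days old. The study's text has their cells isolated and cultured, without stating whether culture came before the sort. The labelled strain is C57BL/6, no sex is given in the sources used here, and no agent is named. These genotypes are from the study's text. The labels hold the same groups of 3 under other names, *Mmp13* knock out and *Mmp13* wildtype. Arrays labelled as the *Mmp13* knockout had more *Mmp13* signal than the others (3.35 log2 more for its brightest probe, adjusted p = 0.00048). The study's text names *Mmp13* as the gene raised most in its ERα deleted cells on the arrays, and reports a rise by qPCR too. *Esr1*, the ERα gene, was not detected by either of its 2 probes on any array (detection p from 0.16416 to 0.98371), so the deletion could not be read from these data, and every direction below rests on the study's naming. Headings of 2 ERα deleted arrays are identical, and these are called the first and second array with the shared heading. Nothing states that the arrays of a group are separate litters or cultures, so p-values measure the spread between arrays, which may be technical.

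Cells meet oxidants with enzymes that work in layers. Superoxide dismutases turn superoxide into hydrogen peroxide, which catalase, the peroxiredoxins and the glutathione peroxidases then remove. For this the peroxiredoxins and the glutathione peroxidases draw on thioredoxin or on glutathione. Many genes of the synthesis and recycling steps carry an antioxidant response element, which is bound by the transcription factor Nrf2 (*Nfe2l2*) with a small Maf partner, while Keap1 holds Nrf2 in the cytoplasm for degradation and Bach1 competes for the same element. In bone, oxidants are known to shorten the life of osteoblasts and to favour osteoclasts.

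The promoters of 4 of the lower genes and of *Prdx1* are shown, each with the core of the antioxidant response element near the start site. Those of *Nfe2l2*, *Gstm5* and *Mgst1*, which were not called, hold the core as well and are not shown. Windows of 300 bases, from 250 before to 50 after the annotated start, were taken from RefSeq on build GRCm38.p6, and 34 of the 40 genes have one (*Hmox1*, *Gclc*, *Gsr*, *Prdx6*, *Sod3* and *Gsta4* do not). TGACNNNGC was searched on both strands, and so were the fuller forms TGACTCAGC and TGAGTCAGC, of which the first is also a match of the core and the second is not. The fuller forms were added after the windows had been read. Capitals mark the matches, which stand as printed or as their reverse complement, and all 5 genes lie on the plus strand. The windows are chr3:122245307-122245606 for *Gclm*, chr10:82858956-82859255 for *Txnrd1* (its second of 3), chr2:152105274-152105573 for *Srxn1*, chr16:90220512-90220811 for *Sod1* and chr4:116685349-116685648 for *Prdx1*.
Gclm: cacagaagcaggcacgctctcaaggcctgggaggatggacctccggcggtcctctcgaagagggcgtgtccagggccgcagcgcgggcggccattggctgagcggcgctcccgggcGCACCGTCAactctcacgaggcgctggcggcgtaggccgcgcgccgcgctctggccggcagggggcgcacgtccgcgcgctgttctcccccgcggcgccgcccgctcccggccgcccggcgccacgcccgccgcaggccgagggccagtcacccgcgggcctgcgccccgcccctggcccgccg
Txnrd1: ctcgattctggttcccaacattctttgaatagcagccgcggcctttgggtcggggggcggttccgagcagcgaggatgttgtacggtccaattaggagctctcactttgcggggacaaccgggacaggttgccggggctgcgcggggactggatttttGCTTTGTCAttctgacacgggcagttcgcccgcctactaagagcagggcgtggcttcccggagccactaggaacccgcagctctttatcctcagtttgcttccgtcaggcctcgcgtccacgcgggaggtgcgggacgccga
Srxn1: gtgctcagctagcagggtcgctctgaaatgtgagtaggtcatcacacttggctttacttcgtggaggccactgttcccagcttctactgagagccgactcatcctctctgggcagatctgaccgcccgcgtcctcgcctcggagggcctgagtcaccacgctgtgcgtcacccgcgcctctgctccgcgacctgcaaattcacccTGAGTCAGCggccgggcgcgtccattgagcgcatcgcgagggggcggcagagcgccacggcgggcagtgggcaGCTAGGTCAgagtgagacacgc
Sod1: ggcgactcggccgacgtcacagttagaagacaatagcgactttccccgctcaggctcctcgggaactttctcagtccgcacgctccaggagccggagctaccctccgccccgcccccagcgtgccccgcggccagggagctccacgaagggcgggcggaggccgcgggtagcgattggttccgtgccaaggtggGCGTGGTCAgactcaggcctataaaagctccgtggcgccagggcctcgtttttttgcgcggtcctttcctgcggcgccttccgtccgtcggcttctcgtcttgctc
Prdx1: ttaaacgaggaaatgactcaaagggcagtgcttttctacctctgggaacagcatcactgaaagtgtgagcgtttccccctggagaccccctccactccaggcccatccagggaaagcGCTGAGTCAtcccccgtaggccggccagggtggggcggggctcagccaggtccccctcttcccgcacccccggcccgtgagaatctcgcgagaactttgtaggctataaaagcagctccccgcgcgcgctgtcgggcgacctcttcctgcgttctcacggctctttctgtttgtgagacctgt

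The first base of the core match lies at -134 from the start in *Gclm*, -92 in *Txnrd1*, -56 in *Sod1*, -133 in *Prdx1* and 28 in *Srxn1*, which also holds TGAGTCAGC at -45. The match of *Prdx1* is at the same time the reverse complement of TGACTCAGC. Among the genes lower in ERα deleted cells, 4 of the 10 with a window held the core, against 0 of 2 higher genes and 4 of 21 that were not called (*Nfe2l2*, *Prdx1*, *Gstm5* and *Mgst1*). In all, 8 of the 33 genes with a window and a probe held the core, and of all tested genes with a window 1050 of 6295 (16.7%) did. The fuller forms were found in 3 of the 34 genes, *Srxn1*, *Prdx1* and *Gstp1*, and in 62 of the tested genes (0.985%). These are matches of letters, and binding was not measured.

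More genes of the group were lower than higher in ERα deleted cells. The list was chosen with earlier results of these data known. Its shares beside those of all tested genes therefore describe this list and are no independent test. With the brightest tested probe standing for each gene, 12 of 37 (32.4%) were lower and 3 (8.11%) were higher at an adjusted p under 0.05 by limma, with the Benjamini-Hochberg adjustment over all 11089 tested probes. Of all 7695 tested genes 9.93% were lower and 9.62% higher, or 19.5% in either direction. The median log2 difference was -0.18 over the 37 genes and -0.04 over all tested genes, with 26 of the 37 differences below 0. The 12 lower genes had differences from -0.36 to -1.52, with a median of -0.7. At the level of probes, 17 of 57 (29.8%) were lower and 3 (5.26%) higher, where 9.22% and 8.86% of all tested probes were. The 2 groups of arrays did not overlap for 26 of the 37 genes (70.3%), 19 of them with all ERα deleted arrays below all controls, where 44.2% of all tested genes did not overlap. For single probes it was 37 of 57 (64.9%), against 42.4% of all tested probes. With 3 arrays a group, an exact permutation test of a single gene cannot go below p = 0.1. The cells were measured in bulk, so fewer cells of one type and less RNA per cell cannot be told apart.

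**Figure D1:**
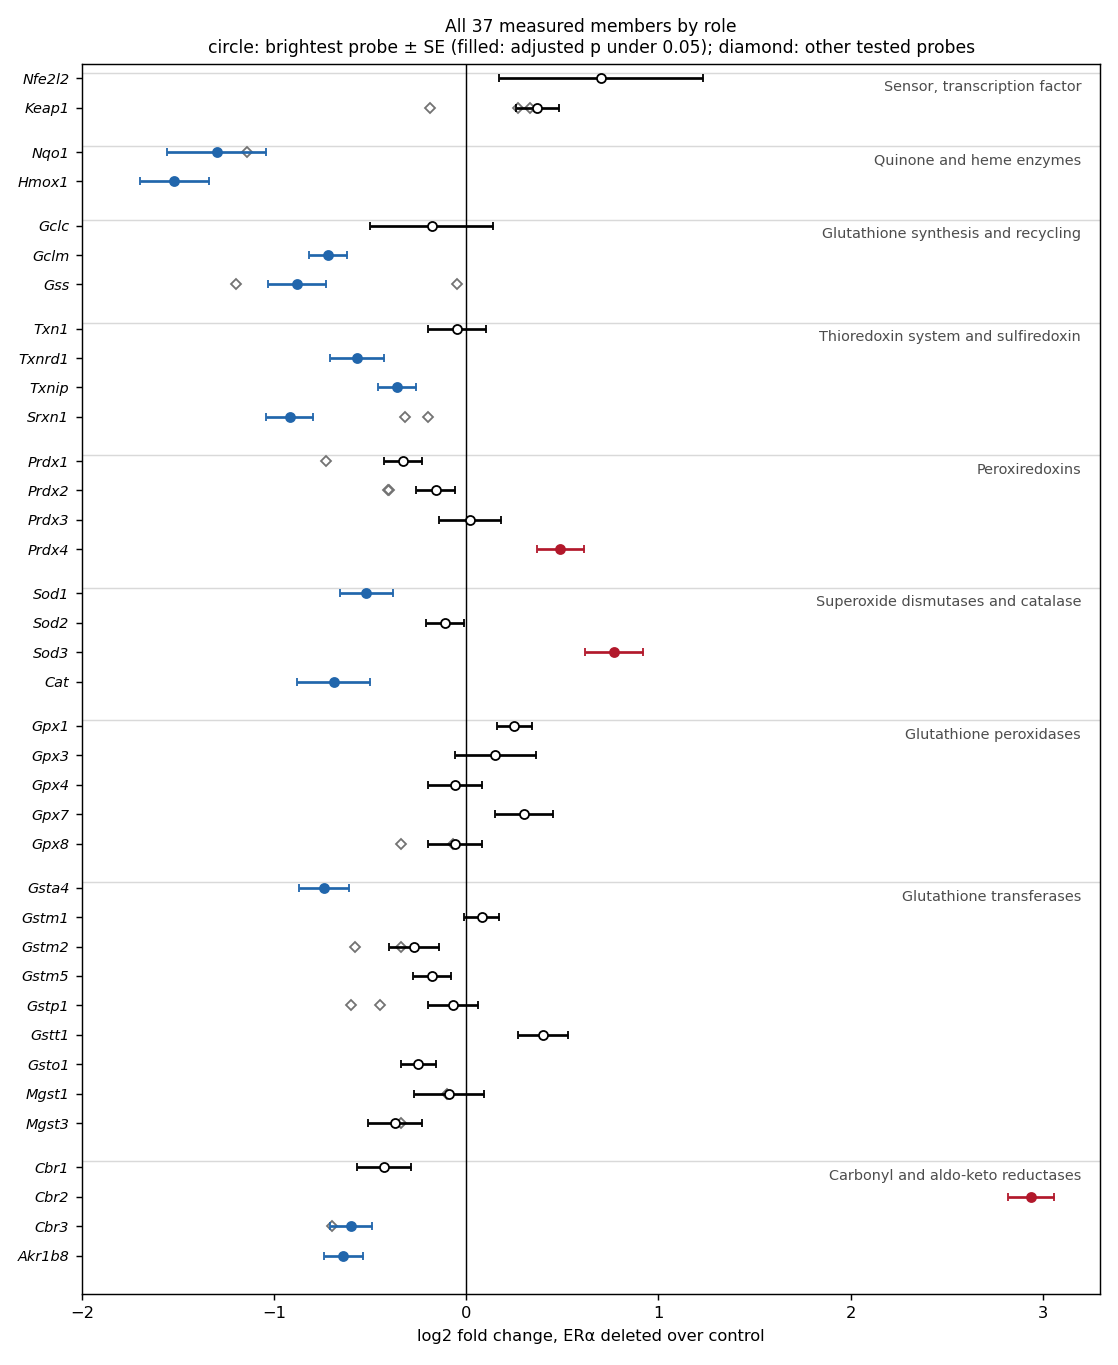
Log2 fold change (horizontal axis, ERα deleted over control) of the 37 measured genes, ordered by role, with a circle and its standard error for the brightest probe, filled where the adjusted p was under 0.05, and a diamond for each other tested probe. Both quinone and heme enzymes lie left of 0, the glutathione peroxidases lie around it with no filled circle, and *Cbr2* stands alone at 2.94.

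**Figure D2:**
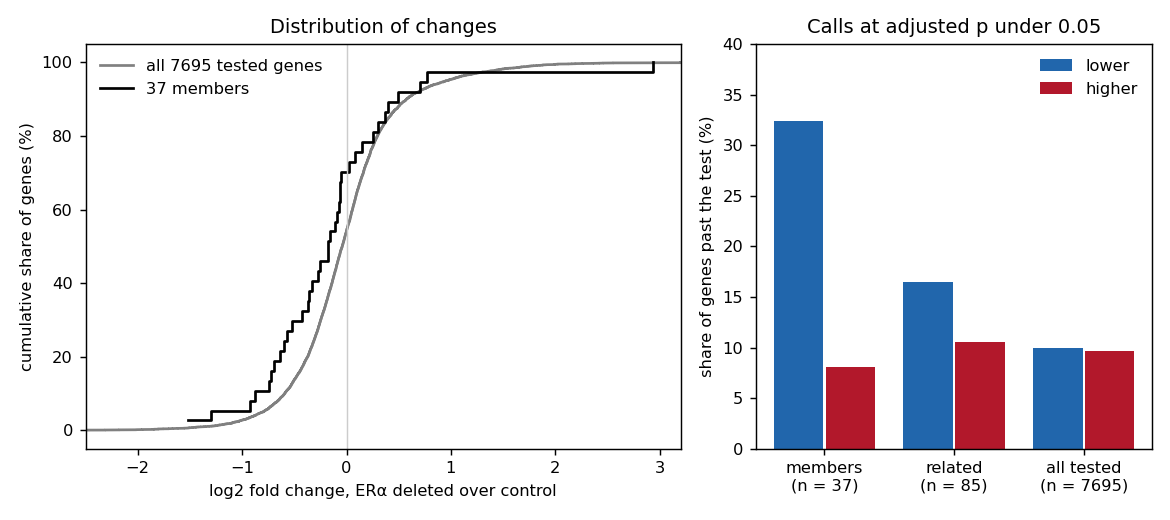
Left, the cumulative share of genes (%) by log2 fold change for the 37 members and for all 7695 tested genes; right, the share (%) of members, of 85 related genes and of all tested genes that were lower or higher at an adjusted p under 0.05. The members' curve lies to the left of the other below 0, with 32.4% of members lower against 9.93% of all tested genes. Members and related genes were chosen with earlier results of these data known.

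Of the regulators, neither *Nfe2l2* nor *Keap1* passed the test. Values are normalized log2 signals, given first for ERα deleted replicate 1 and the first and second array with the shared heading, then for control replicates 1, 2 and 3. *Nfe2l2* read 8.1, 8.04 and 7.96 against 7.49, 6.1 and 8.4, a difference of 0.70 ± 0.53 (SE, n = 3 a group, adjusted p = 0.37). The ERα deleted arrays lay close together and inside the range of the controls, whose SD of 1.16 was the highest of the 37 genes. Its other probe was detected on no array. The brightest of 4 *Keap1* probes read 9.16, 9.36 and 9.38 against 8.83, 8.97 and 8.98 (0.37 ± 0.11, adjusted p = 0.067). These groups did not overlap, but the other 3 probes gave 0.27, 0.33 and -0.19 (adjusted p from 0.12 to 0.6), so *Keap1* was the only gene of the 12 with several tested probes whose probes differed in sign.

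Both classical Nrf2 targets of the quinone and heme step were lower. *Hmox1*, the inducible heme oxygenase that opens the heme ring, read 9.64, 9.62 and 9.79 against 11.05, 11.59 and 10.97. The lowest control was above the highest ERα deleted array by more than the spread within either group, and the difference was -1.52 ± 0.18 (2.88-fold lower, adjusted p = 0.0026). *Nqo1*, the quinone reductase that spares the cell one-electron cycling of quinones, read 8.2, 7.78 and 8.06 against 9.52, 8.74 and 9.68. Control replicate 2 was the lowest of its group, and still above every ERα deleted array (-1.30 ± 0.26, 2.47-fold lower, adjusted p = 0.018). Its second probe was detected on all 3 controls and on 0 ERα deleted arrays, at least 1.38-fold lower (adjusted p = 0.016), with the undetected arrays set no lower than their detection limit. The call of *Nqo1* was lost without any single ERα deleted array or without control replicate 1 (adjusted p up to 0.081), and that of *Hmox1* was kept whichever array was left out.

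**Figure D3:**
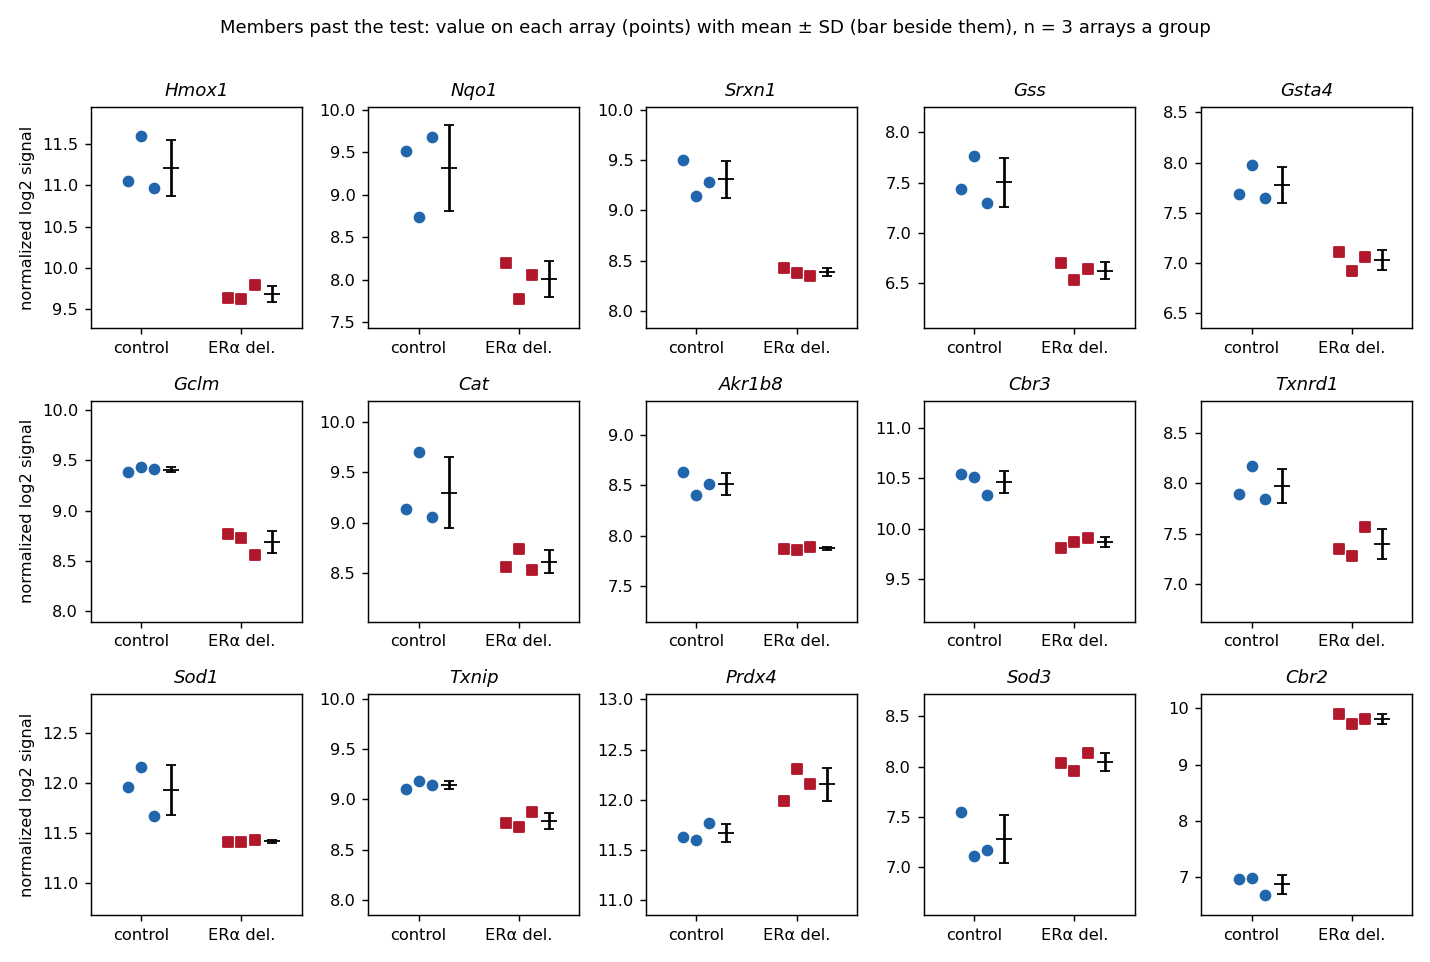
Normalized log2 signal (vertical axis, scaled for each gene) on the 3 control (circles) and 3 ERα deleted arrays (squares) for the 15 genes past the test, with the mean ± SD beside the points. In every panel the groups do not overlap, and *Hmox1* has ERα deleted arrays from 9.62 to 9.79 against controls from 10.97 to 11.59.

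In glutathione synthesis the modifier subunit and the second enzyme were lower, and the catalytic subunit was too dim for a firm reading. *Gclm*, the modifier subunit of glutamate-cysteine ligase, read 8.77, 8.73 and 8.56 against 9.38, 9.43 and 9.41 (-0.72 ± 0.10, 1.64-fold lower, adjusted p = 0.0057). The controls lay within an SD of 0.02, and the call held without any single array. *Gclc*, the catalytic subunit, read 5.16, 5.4 and 5.69 against 5.69, 6.19 and 4.93, was detected on 2 arrays of each group and overlapped between them (-0.18 ± 0.32, adjusted p = 0.7). *Gss*, glutathione synthetase, read 6.7, 6.53 and 6.64 against 7.44, 7.77 and 7.3 on its brightest probe. The groups were apart (-0.88 ± 0.15, 1.85-fold lower, adjusted p = 0.0094), although the call was lost without either array of the shared heading or without control replicate 2 (adjusted p up to 0.14). A second *Gss* probe was lower by more (-1.20, adjusted p = 0.011), and the remaining probe read 7.27, 6.6 and 6.9 against 7.28, 6.12 and 7.51 and did not separate the groups (-0.05, adjusted p = 0.93).

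Of the thioredoxin system, thioredoxin reductase, the thioredoxin inhibitor and sulfiredoxin were lower, and thioredoxin itself did not pass the test. *Srxn1*, the enzyme that rescues over-oxidized peroxiredoxins, read 8.43, 8.38 and 8.35 against 9.5, 9.14 and 9.28. The ERα deleted arrays were within 0.04 (SD) of each other and all below the controls (-0.92 ± 0.12, 1.89-fold lower, adjusted p = 0.0040). This call held without any single array, but 2 dimmer *Srxn1* probes gave -0.32 and -0.20 and were not called (adjusted p = 0.38 and 0.43), and the mean over the 3 probes was not called either. *Txnrd1*, the reductase that recharges thioredoxin with NADPH, read 7.35, 7.28 and 7.57 against 7.9, 8.17 and 7.85 (-0.57 ± 0.14, adjusted p = 0.033). *Txnip*, which binds and inhibits thioredoxin, read 8.76, 8.72 and 8.87 against 9.1, 9.18 and 9.14 (-0.36 ± 0.10, adjusted p = 0.0492). Both had groups apart, but *Txnrd1* lost its call without any single ERα deleted array or control replicate 1, and *Txnip* lost it without any one of the 6 arrays. *Txn1* read 10.44, 10.2 and 10.42 against 10.55, 10.54 and 10.13, with full overlap (-0.05 ± 0.15, adjusted p = 0.82), and its other 2 probes were detected on no array.

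The peroxiredoxins, abundant enzymes that reduce peroxides with thioredoxin, differed by member. *Prdx4*, the form of the endoplasmic reticulum, read 11.99, 12.31 and 12.16 against 11.63, 11.6 and 11.77. It was the single peroxiredoxin past the test on its brightest probe, with every ERα deleted array above every control (0.49 ± 0.12, 1.4-fold higher, adjusted p = 0.039). Its call was lost without any single ERα deleted array or without control replicate 1 or 2. *Prdx1*, a main cytosolic form, read 13.09, 13.11 and 13.13 against 13.47, 13.33 and 13.53, apart but not past the test (-0.33 ± 0.10, adjusted p = 0.067). A much dimmer *Prdx1* probe was lower (-0.73 ± 0.16, adjusted p = 0.025). For *Prdx2*, the other cytosolic form, all 3 probes gave negative differences, from -0.16 to -0.41, and none was called (adjusted p from 0.058 to 0.3). *Prdx3*, the mitochondrial form, read 9.32, 9.66 and 9.32 against 9.47, 9.16 and 9.61, with the groups overlapping (0.02 ± 0.16, adjusted p = 0.95).

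Of the 3 superoxide dismutases 1 was lower, 1 was higher and 1 was not called, and catalase was lower. *Sod1*, the cytosolic copper-zinc form, read 11.41, 11.41 and 11.43 against 11.96, 12.16 and 11.67 (-0.52 ± 0.14, 1.43-fold lower, adjusted p = 0.0496). The ERα deleted arrays were almost equal and the spread lay in the controls. *Sod3*, the secreted form, read 8.04, 7.96 and 8.14 against 7.55, 7.11 and 7.17 and was higher (0.77 ± 0.15, 1.7-fold, adjusted p = 0.016). *Sod2*, the mitochondrial manganese form, read 10.74, 10.62 and 10.75 against 10.82, 10.8 and 10.84, apart by a small margin and not called (-0.11 ± 0.10, adjusted p = 0.42). *Cat*, which encodes the peroxisomal catalase, read 8.56, 8.74 and 8.53 against 9.14, 9.7 and 9.06, lower on all ERα deleted arrays (-0.69 ± 0.19, 1.61-fold, adjusted p = 0.047). Control replicate 2 was the highest for both *Sod1* and *Cat*. *Sod1* lost its call without any one array other than control replicate 3, *Cat* when control replicate 1 or any ERα deleted array was dropped, and *Sod3* without any ERα deleted array.

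None of the 5 glutathione peroxidases passed the test. *Gpx1*, the main cytosolic form, was the brightest probe among them at 13.37, 13.33 and 13.34 against 13.08, 13.15 and 13.07. The groups did not overlap, and the difference was 0.25 ± 0.09 (adjusted p = 0.12). *Gpx7* and *Gpx8*, forms of the endoplasmic reticulum, gave 0.30 ± 0.15 and -0.06 ± 0.14 (adjusted p = 0.19 and 0.79), and *Gpx8* had 3 tested probes with none called. *Gpx3*, the secreted plasma form, and *Gpx4*, which reduces lipid hydroperoxides in membranes, gave 0.15 ± 0.21 and -0.06 ± 0.14 (adjusted p = 0.63 and 0.79). These 4 genes had overlapping groups on the brightest probe.

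Among 9 glutathione transferases, which attach glutathione to electrophiles, *Gsta4* was lower and the other 8 were not called on their brightest probe. *Gsta4*, whose enzyme prefers the lipid peroxidation product 4-hydroxynonenal, read 7.11, 6.92 and 7.06 against 7.69, 7.98 and 7.65. Its groups were well apart (-0.74 ± 0.13, 1.67-fold lower, adjusted p = 0.011), with the call lost without either array of the shared heading (adjusted p up to 0.059). *Gstm2* gave -0.27, -0.34 and -0.58 on 3 probes, of which the dimmest was called (10.08, 10.1 and 10.03 against 10.75, 10.47 and 10.72, adjusted p = 0.018). *Gstp1* gave -0.07, -0.45 and -0.60 with no call (adjusted p from 0.082 to 0.7). The transferases of the mu class are near copies of each other, so a probe of *Gstm1*, *Gstm2* or *Gstm5* may take signal from a neighbour, and their single values are uncertain. *Gstm1* and *Gstm5* gave 0.08 and -0.18 (adjusted p = 0.58 and 0.27), and *Gstt1* 0.40 (adjusted p = 0.083). *Gsto1* gave -0.25 (adjusted p = 0.12), and the microsomal *Mgst1* and *Mgst3* -0.09 and -0.37 (adjusted p = 0.74 and 0.11). On the brightest probe, all ERα deleted arrays lay above all controls for *Gstm1* and *Gstt1*, and below them for *Gstm5*, *Gsto1* and *Mgst3*. Groups were apart for 30.6% of all tested genes that were not called.

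The carbonyl and aldo-keto reductases, which reduce reactive aldehydes and ketones, held the single largest change of the group and changes of the opposite sign beside it. *Cbr2*, the tetrameric carbonyl reductase, read 9.91, 9.73 and 9.82 against 6.96, 6.99 and 6.68, a 7.68-fold rise (2.94 ± 0.12, adjusted p = 0.00017). No array of one group came near the other, and the difference stayed between 2.37 and 3 under all alternatives run. It was the 1 gene of the 37 past a log2 fold change of 1.5 with an adjusted p under 0.001, thresholds that 1.23% of all tested genes passed. *Cbr3* went the other way, at 9.81, 9.87 and 9.91 against 10.54, 10.51 and 10.34 (-0.60 ± 0.11, 1.51-fold lower, adjusted p = 0.012), and its second probe gave -0.70 (adjusted p = 0.018). Its call on the brightest probe was lost when control replicate 1 or any ERα deleted array was dropped (adjusted p up to 0.06). *Akr1b8*, an aldose reductase relative, read 7.87, 7.86 and 7.89 against 8.63, 8.41 and 8.51 (-0.64 ± 0.10, 1.56-fold lower, adjusted p = 0.0085), and was called whichever array was left out. *Cbr1* read 8.06, 7.93 and 8.26 against 8.48, 8.69 and 8.39, with groups apart and no call (-0.43 ± 0.14, adjusted p = 0.072).

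Over all roles, the 22 genes that were not called had differences from -0.43 to 0.70, 11 of them (50%) had groups apart, and 7 (31.8%) had an unadjusted p under 0.05. Of all 6191 tested genes that were not called, 30.6% had groups apart and 20.1% an unadjusted p under 0.05. Of the 12 genes with several tested probes, 2 had every probe called (*Nqo1* and *Cbr3*), 4 had some called (*Gss*, *Srxn1*, *Prdx1* and *Gstm2*) and 6 had none. With median scaling *Txnrd1*, *Txnip*, *Sod1*, *Cat*, *Cbr3*, *Sod3* and *Prdx4* lost their calls, and with cyclic loess *Txnip*, *Sod1* and *Cat* did, with the sign of each difference kept. *Sod1* and *Cat* also lost theirs with no filter on detection, *Sod1* and *Txnip* with a looser filter, and *Txnip* with array weights. Some genes without a call gained one, with the sign kept. Of 20 alternatives, *Prdx1* was called in 8, *Keap1* in 6 and *Cbr1* in 2. *Gpx1*, *Gpx7*, *Gstm2*, *Gstt1*, *Gsto1* and *Mgst3* were called in 1 each. These alternatives include the looser threshold on adjusted p. The median SD over the 37 genes was 0.1 among the ERα deleted arrays and 0.18 among the controls. The mean distance of a gene from its group's other arrays was 0.102 to 0.128 on the ERα deleted arrays, 0.125 on control replicate 1, and 0.313 and 0.264 on control replicates 2 and 3.

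The same comparison was made for related genes outside the 40, in lists also chosen with earlier results of these data known. Of 138 listed genes in 6 lists, 85 were tested, of which 14 (16.5%) were lower and 9 (10.6%) higher, with a median of -0.1. Over all tested genes 9.93% were lower and 9.62% higher, with a median of -0.04, so the share higher was near that of all genes. The single lists are small, and their counts are to be read against the same shares. The partners and rivals of Nrf2 gave 2 lower and 1 higher of 12. *Maff*, a small Maf protein that pairs with Nrf2, read 5.39, 5.74 and 5.65 against 7.39, 7.53 and 6.35 (-1.50 ± 0.31, adjusted p = 0.021). Control replicate 3 was the lowest control and still above all ERα deleted arrays. *Mafk*, another small Maf protein, was below detection on the ERα deleted arrays and at least 1.51-fold lower there (adjusted p = 0.014). *Bach1*, the repressor at the same element, read 6.93, 6.68 and 6.73 against 5.67, 5.55 and 6.2 and was higher (0.97 ± 0.19, adjusted p = 0.016). *Nfe2l1*, the Nrf1 relative, had groups apart with no call (-0.63 ± 0.23, adjusted p = 0.11).

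Beyond heme oxygenase, 2 genes of the NADPH, iron, heme and transport list were lower and 3 higher of 13. The biliverdin reductases, which act after heme oxygenase, differed in sign. *Blvrb* read 9.57, 9.7 and 9.43 against 10.2, 10.45 and 10.14 (-0.70 ± 0.13, adjusted p = 0.015), and *Blvra* 9.79, 9.58 and 9.7 against 9.17, 9.23 and 9.19 (0.49 ± 0.10, adjusted p = 0.021). *Me1*, the cytosolic malic enzyme that makes NADPH, was lower (-0.42, adjusted p = 0.03), and *Slc3a2*, the heavy chain of the cystine transporter, and *Abcc5*, an efflux pump, were higher (0.47 and 0.42, adjusted p = 0.044 and 0.034). The ferritin heavy chain *Fth1* did not pass the test (-0.07, adjusted p = 0.61).

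The other glutathione genes gave 5 lower and 2 higher of 21. *Ggct*, which cleaves gamma-glutamyl amino acids in the breakdown of glutathione, read 7.64, 7.61 and 7.69 against 8.74, 8.74 and 8.53 (-1.03 ± 0.11, adjusted p = 0.0017). *Esd*, which frees glutathione from its formaldehyde adduct, read 11.34, 11.36 and 11.51 against 12.49, 12.32 and 12.3 (-0.97 ± 0.11, adjusted p = 0.0022). For both, the groups did not overlap. *Gstm6*, *Glrx5* and *Gstk1* were lower by less (-0.55, -0.47 and -0.41, adjusted p = 0.034, 0.031 and 0.038), and *Gstt3* and *Oplah*, the 5-oxoprolinase, were higher (0.57 and 0.56, adjusted p = 0.038 and 0.022).

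Aldehyde and carbonyl enzymes outside the 40 gave 4 lower and 2 higher of 21. *Aldh1a1*, a retinaldehyde dehydrogenase, read 7.11, 6.82 and 6.84 on the controls and was below detection on the ERα deleted arrays, at least 2.91-fold lower (adjusted p = 0.00044). Its close relative *Aldh1a7* was lower too (-1.01 ± 0.15, adjusted p = 0.0066), and since the 2 genes are near copies their probes may share signal. *Adh1*, an alcohol dehydrogenase, and *Akr1b10*, of the same family as *Akr1b8*, were lower (-0.92 and -0.61, adjusted p = 0.0083 and 0.0091). *Aldh1a7* and *Adh1* were each detected on only 1 ERα deleted array, so their differences rest partly on undetected values. *Aldh3b1* was higher at 8.03, 8.11 and 8.15 against 7.24, 7.18 and 7.37 (0.84 ± 0.10, adjusted p = 0.0031). *Hsd11b1*, which regenerates active glucocorticoid, was not detected on any control and was at least 1.34-fold higher (adjusted p = 0.0069). Of 14 other thioredoxin, selenoprotein and metallothionein genes, *Selenop*, the selenium carrier, was higher (0.83 ± 0.18, adjusted p = 0.024) and none was lower. Of the 4 tested oxidases that make reactive oxygen, *Xdh*, xanthine dehydrogenase, was lower at 7.23, 7 and 7.13 against 8.67, 9.08 and 8.27 (-1.55 ± 0.21, adjusted p = 0.0043).

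**Figure D4:**
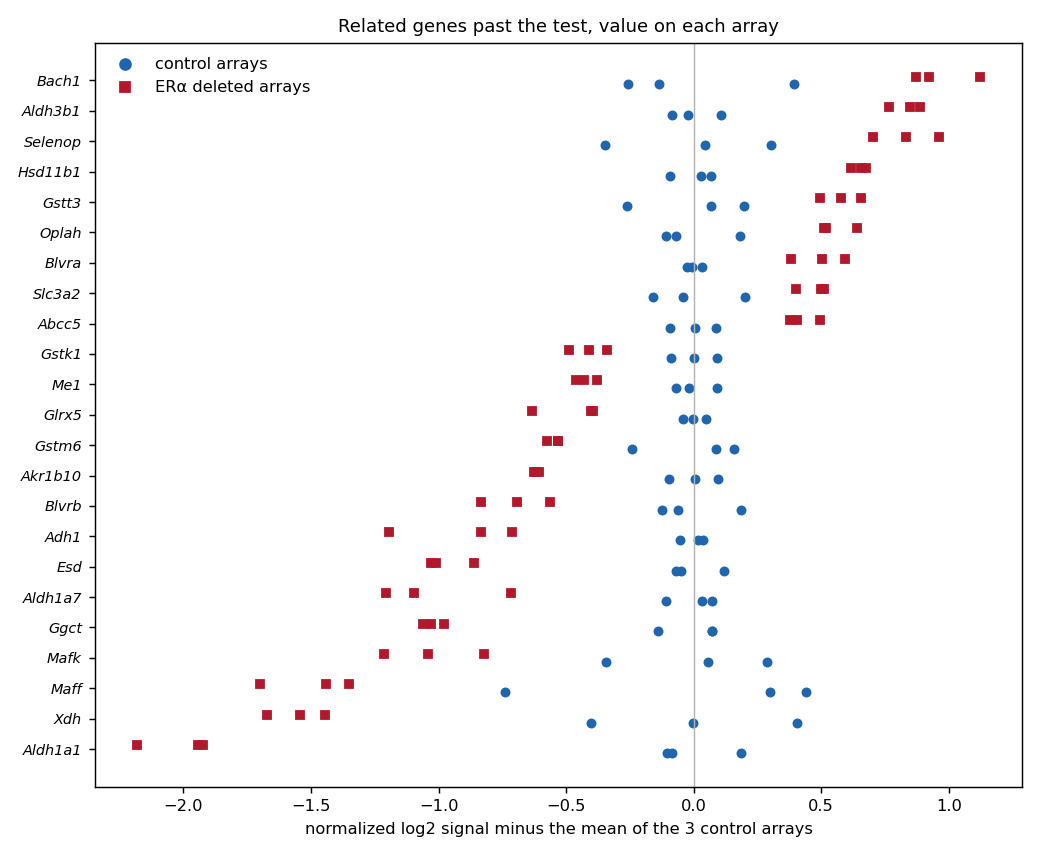
Normalized log2 signal minus the mean of the 3 control arrays (horizontal axis) on each control (circles) and ERα deleted array (squares) for the 23 related genes past the test, with undetected values drawn as measured. *Maff*, *Xdh* and *Aldh1a1* lie farthest to the left and *Bach1* farthest to the right, and no gene has overlapping groups.

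Markers of other cells differed between the groups beside these results, and their part in the result was not tested. Of 20 macrophage and osteoclast markers, 18 had a probe and 11 were tested, and 10 of the 11 were lower in ERα deleted cells, among them *Fcer1g* (-2.22), *Adgre1* (-2.01), *C1qc* (-1.85) and *Cd14* (-1.84), with adjusted p from 0.00048 to 0.0016 for these. The summed linear level of the 10 was 1710 to 1830 on the ERα deleted arrays and 4430 to 5830 on the controls. Most of this sum is *Lyz2*, with a mean log2 of 10.07 against 11.58. On the ERα deleted arrays *Tyrobp* and *C1qa* were detected on 0, *C1qb* and *Ctss* on 1, and *Fcer1g*, *Adgre1* and *C1qc* on 2. Their differences therefore rest partly on undetected values. The exception among the 11 was *Ctsk* (0.12, adjusted p = 0.4). *Ptprc*, *Itgam*, *Cd163* and *Acp5* were detected on no array. *Hmox1* is known as a gene that macrophages express. All 12 tested G2 and M phase genes were higher (median 1.48), with summed levels of 12300 to 12700 against 3990 to 4560. Of the 7 tested osteoblast markers 4 were higher (*Ibsp*, at least 3.1-fold, *Bglap2*, *Bglap* and *Alpl*) and *Sp7*, the *Osx1* gene, was lower at 9.55, 9.36 and 9.4 against 10.4, 10.18 and 10.11 (-0.80, adjusted p = 0.0073). *Sp7* and the collagen genes *Col1a1* and *Col1a2* were bright on both groups, and the osteocyte markers *Dmp1* and *Phex* were detected on no array. No granulocyte or erythroid marker was detected on enough arrays for a test. The endothelial *Esam* gave -0.62 (adjusted p = 0.0509), and 1 lymphocyte and 2 adipocyte markers gave no call. Of the 4 epidermal and 2 muscle markers tested, *Cdsn* was higher (3.57) and *Sfn*, *Lor* and *Acta1* were lower (-1.85, -1.34 and -0.55). *Esam* and *Sfn* were each detected on only 1 ERα deleted array.

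Array quality was alike in the 2 groups by detection, with 40.2% to 43.6% of probes detected, but not by spread. Correlations between arrays were 0.991 to 0.995 among ERα deleted arrays, 0.929 to 0.982 among controls and 0.9 to 0.966 between the groups. Control replicates 2 and 3 stood apart, with 150 and 79 probes more than 2 log2 from the other controls, against 6 on control replicate 1 and 0 on each ERα deleted array. Without control replicate 2, 10 of the 37 genes were lower and 3 higher, and without control replicate 3 it was 13 and 3. Leaving out either array of the shared heading left 4 lower and 1 higher. The number of calls over all tested probes also moved with the array left out, as given in the last section. Counts of members and of all probes thus both depended on the arrays used. Whether a change was particular to the 37 genes was not tested.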

How the data were processed

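The deposited intensities are BeadStudio signals per probe, without background subtraction, each beside a detection p-value deposited by the authors. The authors also deposited log2 values, quantile normalized with lumi (version not given in the sources used here), with a median of 6.59 on each array. Scanner rows carry other identifiers, so all 25697 probes were linked to the annotated table by their ranks on the 4 arrays named in both tables. Of these, 23978 had 1 gene and 1719 were not listed.

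The signals were corrected for background and normalized by quantiles with limma 3.58.1 (function neqc in R 4.3.3, offset 16, controls inferred from detection p). The test took in 11089 probes, those whose detection p was under 0.01 on 3 or more of the 6 arrays. Groups were compared with lmFit and eBayes, with Benjamini-Hochberg adjustment over all of them and a threshold of 0.05. The brightest tested probe stands for a gene. A probe detected on no array of a group has its fold given as a bound, with that group no lower than its detection limit. Array number limits the precision.

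The members and gene lists were chosen with earlier results of these data known, some of the lists taken over from an earlier analysis. The rule for naming took all members, called genes of each related list (at most 6 in each direction) and called markers (at most 4 a list). *Sp7*, *Nfe2l1*, *Fth1*, *Ctsk*, *Esam*, *Col1a1* and *Col1a2* were named besides, after their values were seen. So were *Ptprc*, *Itgam*, *Cd163*, *Acp5*, *Dmp1* and *Phex*, as markers detected on no array. Alternatives were other background corrections, normalizations, filters, variance models, thresholds, probe choice, the authors' table, a replicate block and each array left out.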

Additional observations from a re-analysis of the deposited data

How the results depend on the processing

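No member gene changed direction past the threshold under any alternative run. Related genes and markers were followed only by their counts, so their single directions were not checked. With median scaling the median difference over all tested probes was -0.167, against -0.025 in the analysis reported, and 7 members were lower and 1 higher, with 1 related gene higher, and 572 probes lower and 521 higher in all. At the thresholds of the study's legend (log2 fold change over 1.5, adjusted p under 0.001) 0 members were lower and 1 was higher, 1 related gene was lower and 0 were higher, and 43 probes were lower and 74 higher; without these thresholds limma called 12 and 3 members, 14 and 9 related genes and 1022 and 982 probes. With an adjusted p under 0.1, 14 members were lower and 5 higher. This threshold raised calls over all probes too, with 1570 lower against 1022 in the analysis reported. With trend and robust settings of eBayes 5 members were higher. No share over all probes stands beside that count, so it is not a result about the members alone. With each array left out in turn, members lower ran from 4 to 13 and higher from 1 to 3, related genes lower from 6 to 18 and higher from 2 to 11, and probes lower from 342 to 1827 and higher from 401 to 1673. Arrays of the same number in the labels had correlations of deviations of 0.105, -0.0552 and -0.0501. These show no pairing, but with so few arrays they cannot exclude it. With the replicate number as a block, on the authors' table, 9 members were lower and 2 higher, 4 related genes were higher, and 613 probes were lower and 718 higher. In these alternatives the cause was not tested. *Hmox1*, *Gclm*, *Srxn1*, *Akr1b8* and *Cbr2* kept their calls without any single array. The mean over a gene's probes gave 13 members lower, also without a share over all genes beside it. Dim probes such as that of *Gclc* limit what these arrays can show.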
